A study of Mus musculus with 15 samples.

Results

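The 10 acute phase serum protein genes described here are Saa1, Saa2, Saa3, Saa4, Orm1, Orm2, Lcn2, Hp, Hpx and Apcs. They were taken by gene symbol from the platform annotation and are measured by 12 of the 45037 probe sets of the array, which carries 18193 gene symbols in all. Liver RNA came from 15 male C57BL/6J mice that entered the study at 8 weeks of age and were fed for 12 weeks, with 1 array per mouse. NC mice (n = 5) received standard chow. CL mice (n = 5) received the CL diet, which induces steatohepatitis and holds 0.5% sodium cholate and 1.25% cholesterol beside 60% cocoa butter and 38.23% chow. CL+CX mice (n = 5) received the CL diet with β-cryptoxanthin, a xanthophyll carotenoid, at 0.003% in the treatment description, whereas the sample titles give 0.005%. The CL diet, cholate included, is therefore shared by CL and CL+CX mice, and NC mice differ from both in every one of its components. The comparisons ask how liver gene expression differs on the CL diet and how β-cryptoxanthin alters it, and they share mice, so they are not independent of each other.

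In the acute phase response, interleukin-6 and interleukin-1 from activated macrophages act on hepatocytes through STAT3, C/EBP proteins and NF-kappaB, and the liver changes the mix of proteins it secretes into the blood. Serum amyloid A proteins 1 and 2 are carried on high-density lipoprotein and are among the most inducible of these proteins in the mouse. Serum amyloid A3 is also made by macrophages and adipocytes, and serum amyloid A4 is the constitutive member of the family. The orosomucoids (alpha-1-acid glycoproteins), haptoglobin and haemopexin bind small molecules, haemoglobin and haem, respectively. Lipocalin-2 binds bacterial siderophores, and serum amyloid P, the product of Apcs, is the main acute phase pentraxin of the mouse.

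Sequence upstream of the annotated start was held for 8 of the 10 genes, all but Hp and Orm1, in the RefSeq table of build GRCm38.p6. The 250 bases before the start are shown for 5 genes, because Saa1, Saa2 and Orm2 moved together from mouse to mouse, Saa3 was the gene called on the CL diet and Saa4 did not vary with the others. Capitals mark matches to 4 motifs searched on both strands, namely STAT (TTCNNNGAA), C/EBP (TTGCNNAA), NF-kappaB (GGNNTTTCC) and the TATA box (TATAAA), with the gene's own strand printed from 5′ to 3′.
Saa1, chr7:46742981-46743230, minus strand: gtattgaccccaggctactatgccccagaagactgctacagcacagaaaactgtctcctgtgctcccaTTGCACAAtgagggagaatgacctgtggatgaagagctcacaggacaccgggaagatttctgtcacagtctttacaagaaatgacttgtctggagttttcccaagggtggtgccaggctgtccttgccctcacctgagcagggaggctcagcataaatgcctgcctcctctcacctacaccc
Saa2, chr7:46751583-46751832, plus strand: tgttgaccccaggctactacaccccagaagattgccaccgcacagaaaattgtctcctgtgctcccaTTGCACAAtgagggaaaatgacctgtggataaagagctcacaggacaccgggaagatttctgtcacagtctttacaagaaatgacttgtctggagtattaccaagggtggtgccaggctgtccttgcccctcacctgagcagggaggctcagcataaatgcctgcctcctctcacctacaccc
Saa3, chr7:46715677-46715926, minus strand: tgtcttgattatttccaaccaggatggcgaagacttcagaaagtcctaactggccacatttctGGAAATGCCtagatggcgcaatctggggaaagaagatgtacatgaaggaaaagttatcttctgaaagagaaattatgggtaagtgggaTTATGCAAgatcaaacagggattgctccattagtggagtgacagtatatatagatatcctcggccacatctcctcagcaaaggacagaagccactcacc
Saa4, chr7:46732604-46732853, minus strand: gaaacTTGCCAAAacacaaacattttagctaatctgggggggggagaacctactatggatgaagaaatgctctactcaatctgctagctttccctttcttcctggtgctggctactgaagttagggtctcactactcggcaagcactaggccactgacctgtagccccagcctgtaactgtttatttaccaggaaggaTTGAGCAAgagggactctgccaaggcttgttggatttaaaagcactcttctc
Orm2, chr4:63362199-63362448, plus strand: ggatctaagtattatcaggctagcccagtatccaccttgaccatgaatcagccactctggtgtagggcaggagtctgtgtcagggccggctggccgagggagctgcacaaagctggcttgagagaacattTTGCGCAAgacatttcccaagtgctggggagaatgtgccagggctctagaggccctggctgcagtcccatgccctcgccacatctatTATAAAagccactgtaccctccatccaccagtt

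A C/EBP match stood upstream of 7 of the 8 genes, all but Apcs, whereas 9.56% of 32851 promoters of the same length held one. A STAT match was found for Apcs only, with 7.02% of all promoters holding one. The NF-kappaB letters matched upstream of Saa3 only, against 4.93% of all promoters, and the TATA box letters upstream of Orm2 only, against 12.4%. No match overlapped a match to another motif. These are matches of letters, not measured binding. The upstream stretches of Saa1 and Saa2 were identical at 238 of 251 aligned positions (94.8%), and both carried the C/EBP match TTGCACAA about equally far from the start, at -182 to -175 and at -183 to -176. Saa1 and Saa2 are neighbours on chromosome 7 and are read in opposite directions, with Saa4 and Saa3 further along the same cluster. The Saa1 stretch was 52.2% identical to that of Saa3 and 49.5% to that of Saa4. The Orm2 stretch was 85.9% identical to that of Orm3, which lies between Orm1 and Orm2 on chromosome 4.

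**Figure D1:**
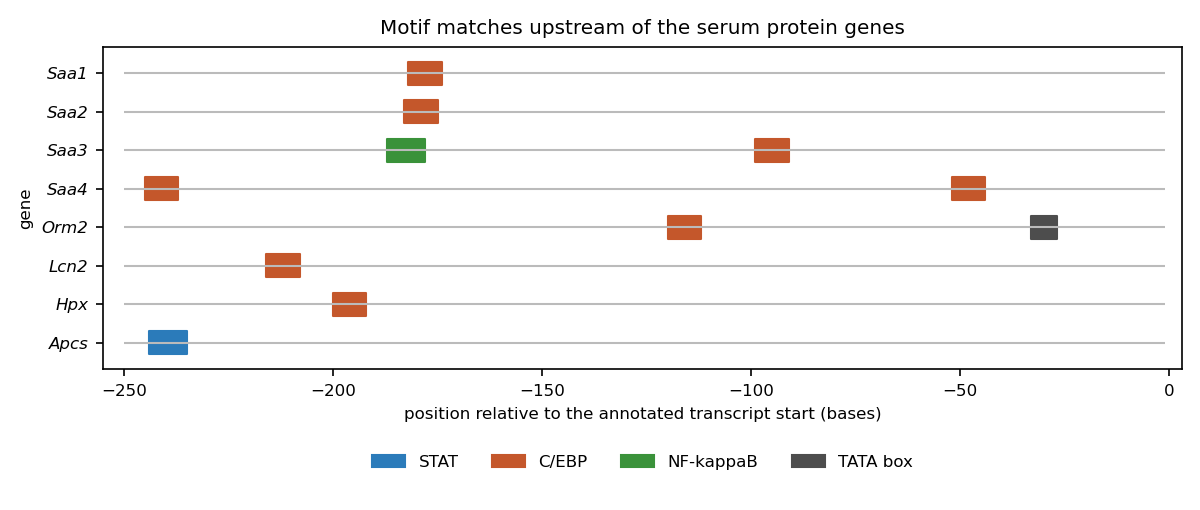
Position of motif matches in the 250 bases upstream of the annotated transcript start of 8 serum protein genes. Each grey line is 1 gene, the horizontal axis is the distance from the start in bases, and coloured blocks mark matches to the STAT, C/EBP, NF-kappaB and TATA box letters. C/EBP matches (orange) stand in 7 of the 8 genes, and Apcs carries the STAT match alone.

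All 12 probe sets gave signals above their array's median on all 15 arrays, and all 12 entered the test. Values are array signals scaled to a common 75th percentile of 54.1, and differences are on the log2 scale. A difference is called when its adjusted p from limma, by Benjamini-Hochberg over 20361 probe sets, is under 0.05. One of 12 probe sets was called between CL and NC mice, that of Saa3, which was higher, whereas 12.2% of all probe sets were called in this comparison. None of 12 was called between CL+CX and CL mice, where 3.12% of all probe sets were called. The gap between the β-actin 3′ and 5′ probe sets, a sign of RNA quality, differed between these 2 diets. With that gap in the model, 1 probe set of the whole array was called in this comparison. Between CL+CX and NC mice 2 of 12 were called, those of Saa3 and of Saa4, both higher, against 9.74% of all probe sets. At an unadjusted p under 0.05 the counts were 2, 0 and 2 of 12. The median difference over the 10 genes was -0.14 for CL against NC and 0.00 for CL+CX against CL, beside -0.08 and 0.02 over all 10525 genes tested. The share of probe sets called among these genes was therefore not above that of the whole array in the first 2 comparisons.

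**Figure D2:**
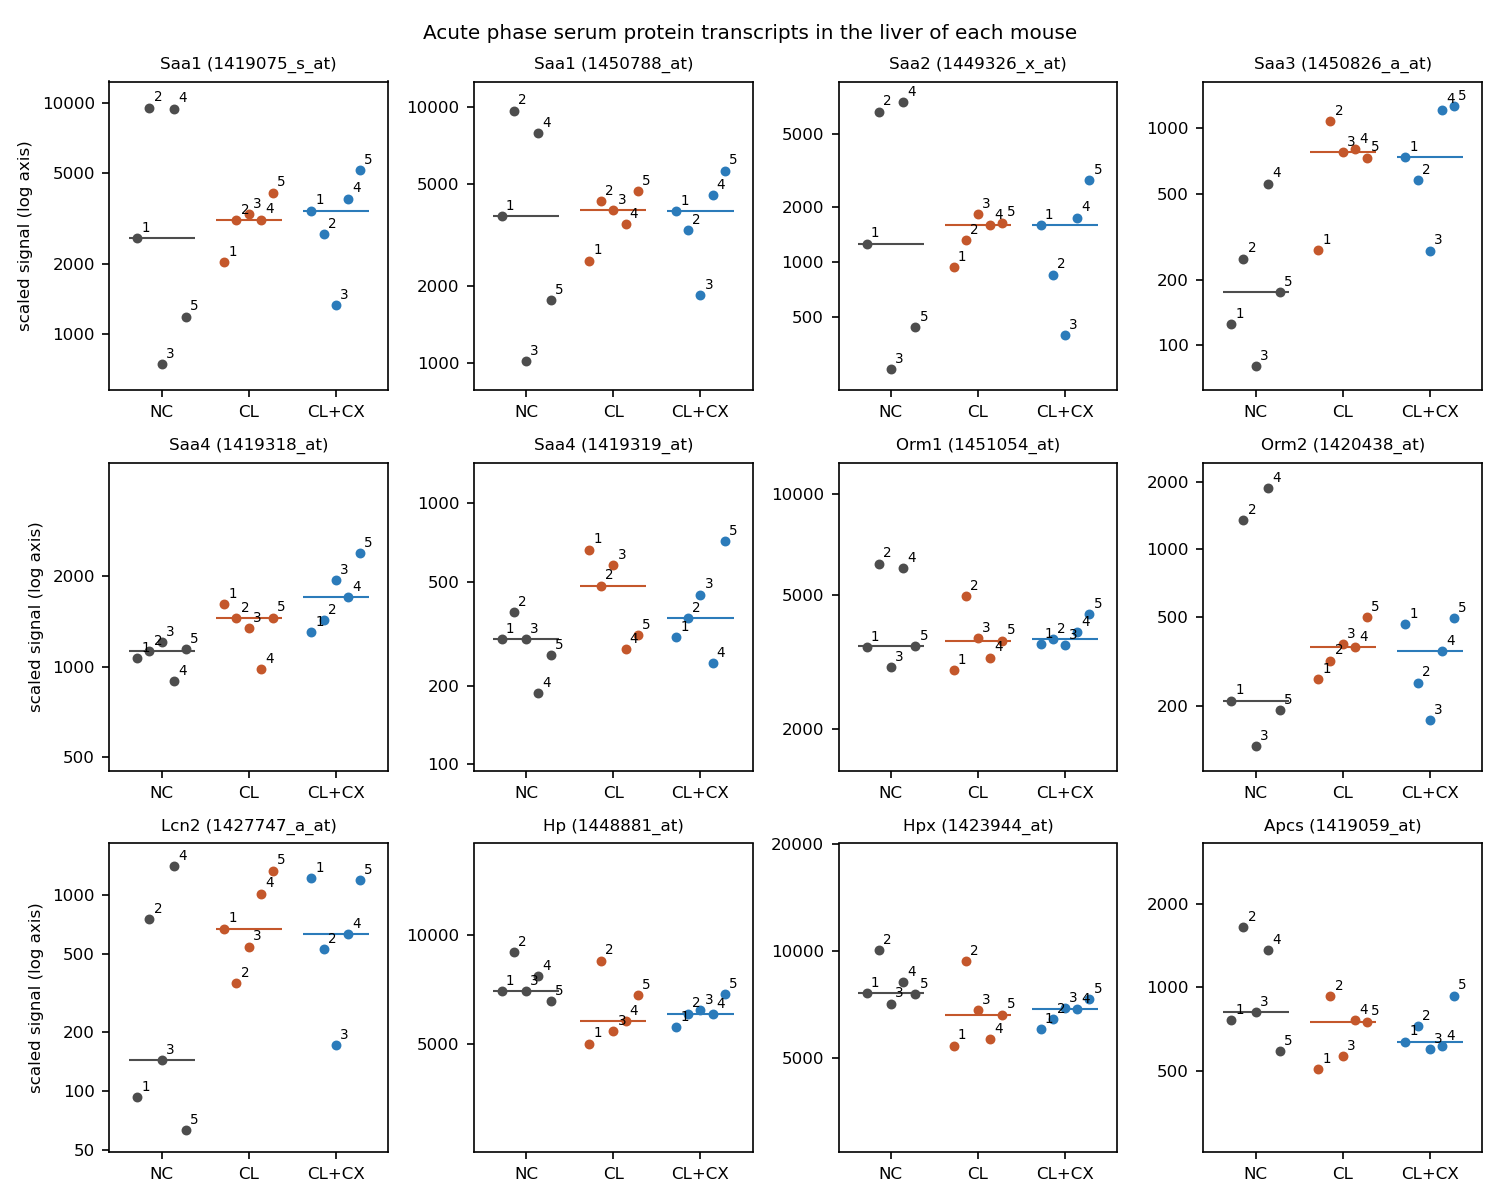
Scaled signal (log axis) of each of the 12 probe sets in each of 15 livers, grouped by diet. Points are mice with their replicate number, and horizontal lines are group medians. NC mice 2 and 4 stand above the other NC mice for all genes but Saa4, and Saa3 is higher in most CL and CL+CX mice than in NC mice.

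Expression of Saa3 rose 3.55-fold from NC to CL mice. The signal was 124, 250, 79.8, 556 and 175 in NC mice 1 to 5. It was 274, 1084, 776, 799 and 734 in CL mice 1 to 5, and 734, 579, 272, 1222 and 1268 in CL+CX mice 1 to 5. Of the CL mice, 4 of 5 lay above all NC mice, and CL mouse 1 lay between the NC mice, so the groups overlapped. The difference was 1.83 on the log2 scale (SE 0.52, 95% interval 0.73 to 2.92, adjusted p = 0.0308, limma, n = 5 per diet). The difference between CL+CX and NC was of the same size, 1.91 (SE 0.52, adjusted p = 0.0303). Between CL+CX and CL it was 0.08 (SE 0.52, 95% interval -1.01 to 1.18, adjusted p = 0.955), an interval that leaves room for a halving or a doubling. The test that the study's methods describe, which allows unequal variances, gave an adjusted p of 0.124 for Saa3 in CL against NC, and it was 0.115 when the gap between the β-actin 3′ and 5′ probe sets entered the model. The adjusted p was also above the threshold when 1 mouse was left out, whether NC mouse 1 (0.0750), 3 (0.0776) or 5 (0.0596) or CL mouse 2 (0.0510), 3 (0.0606), 4 (0.0651) or 5 (0.0573), with differences between 1.52 and 2.22 over all mice left out. For CL+CX against NC it was above the threshold without NC mouse 1 (0.0750), 3 (0.0703) or 5 (0.0593) and without CL+CX mouse 1 (0.0553), 4 (0.0717) or 5 (0.0736), by the methods' test (0.124) and with the β-actin term (0.0935). With no filter on low signals it was 0.107 for CL against NC and 0.110 for CL+CX against NC.

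Since Saa3 is also made by macrophages, the levels of macrophage markers are set beside it. All 8 macrophage markers that were tested were called higher in CL mice than in NC mice, by log2 differences of 2.67 for Ccr2, 2.24 for Marco, 2.15 for Cd68, 1.61 for Vsig4, 1.60 for Cd14, 1.32 for Csf1r, 1.11 for Adgre1 and 1.07 for Clec4f (limma). Their summed signal, over 9 markers measured, was 618 to 1489 in NC, 2405 to 4366 in CL and 1295 to 2145 in CL+CX mice. Against CL mice, 3 of the 8 were called lower in CL+CX mice, with log2 differences of -1.04 for Adgre1, -1.42 for Cd68 and -1.33 for Cd14. The CL+CX median of Saa3, 734, stood next to the CL median of 776, while the summed macrophage markers of every CL+CX mouse lay below those of every CL mouse. This sum is on the linear scale, so bright genes weigh most, with Csf1r at a CL median of 1220 beside 3078 for the sum. Not all markers behaved like the sum. Ccr2 (-0.40) and Marco (-0.38) were not called against CL mice. These 2 of the 8 were, like Saa3, called higher with β-cryptoxanthin against NC mice, by 2.27 and 1.86 (limma). The differences of Ccr2 from NC mice start from NC signals of 4.46 to 10.9, below the array median in every NC mouse. Adipocyte markers were low, with 1 of 4 measured genes (Cidec) entering the test and Adipoq, Retn and Lep failing the filter. The part of either cell type in the Saa3 signal was not tested, and in whole liver more cells of a type and more RNA per cell cannot be told apart. The non-member genes whose deviations from the diet means were most like those of Saa3 over the 15 mice were Fcgr4 (r = 0.90), an Fc receptor of myeloid cells, Ifi27l2a (r = 0.89), an interferon-inducible gene, and Bak1 (r = 0.84), a pro-apoptotic gene.

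Saa1 and Saa2, the inducible serum amyloid A genes, had nearly the same mean in the 3 diets but very different spread. The Saa1 signal was 3735, 9691, 1012, 7916 and 1757 in NC mice 1 to 5. In CL mice 1 to 5 it was 2509, 4295, 3964, 3480 and 4693, and in CL+CX mice 1 to 5 it was 3911, 3298, 1833, 4537 and 5637. The NC mice held both the highest values and the lowest of all 15 livers, a 9.58-fold range, and the CL mice lay within a 1.87-fold range in the middle of it. The log2 difference was 0.09 for CL against NC (SE 0.51, 95% interval -0.99 to 1.17, adjusted p = 0.931, limma) and -0.04 for CL+CX against CL (SE 0.51, 95% interval -1.12 to 1.04, adjusted p = 0.977). A second probe set with the Saa1 symbol gave 0.08 and -0.03. By its accession this second probe set belongs to Saa2 in RefSeq, and sequences so alike can bind one another's probes, so that signal cannot be assigned to Saa1 or Saa2 with certainty.

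Saa2 showed the same picture with a wider span. Its signal was 1258, 6587, 260, 7390 and 444 in NC mice 1 to 5. It was 938, 1321, 1827, 1593 and 1636 in CL mice 1 to 5, and 1588, 855, 400.5, 1742 and 2789 in CL+CX mice 1 to 5. NC mice spanned 28.4-fold, CL+CX mice 6.96-fold and CL mice 1.95-fold. The SD on the log2 scale was 2.20 in NC, 0.38 in CL and 1.08 in CL+CX mice, given as a description. The log2 difference was -0.05 for CL against NC (SE 0.80, 95% interval -1.75 to 1.65, adjusted p = 0.975, limma), and its sign turned to 0.26 on signals as deposited and to 0.12 after quantile normalization. For CL+CX against CL it was -0.23 (95% interval -1.93 to 1.47, adjusted p = 0.911). The intervals of Saa1 and Saa2 span changes of close to 2-fold or more either way. They use a variance pooled over the 3 diets, so the spread of NC mice also widens the intervals of CL+CX against CL. For Saa1 the log2 SD was 1.39 in NC, 0.35 in CL and 0.61 in CL+CX mice. Whether a difference of that size was missed cannot be told from these intervals.

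Saa4, the constitutive gene of the cluster, was called between CL+CX and NC mice by 1 of its 2 probe sets. The signal of its brighter probe set was 1070, 1130, 1207, 898 and 1146 in NC mice 1 to 5. It was 1612, 1450, 1345, 983 and 1459 in CL mice and 1301, 1430, 1947, 1704 and 2390 in CL+CX mice 1 to 5. Every CL+CX mouse lay above every NC mouse, and 14.2% of all probe sets had no overlap between these groups, in one direction or the other. The log2 difference between CL+CX and NC was 0.66 (SE 0.17, 95% interval 0.30 to 1.02, adjusted p = 0.0248, limma). CL mice lay between, at 0.32 over NC (SE 0.17, adjusted p = 0.251), and CL+CX exceeded CL by 0.34 (SE 0.17, adjusted p = 0.288). The second Saa4 probe set did not pass in any of the 3 comparisons. It gave 0.65 for CL against NC (SE 0.30, adjusted p = 0.176), -0.18 for CL+CX against CL (adjusted p = 0.799) and 0.47 for CL+CX against NC (adjusted p = 0.330), so the probe sets had opposite signs for CL+CX against CL. The CL+CX against NC call was lost without NC mouse 1 (adjusted p = 0.0548) or 4 (0.0551) and without CL+CX mouse 3 (0.0572) or 5 (0.0613), by the methods' test (0.0861), with the β-actin covariate (0.0816) and with no filter on low signals (0.100). The genes most like Saa4 within diets were Bach1 (r = 0.89), a haem-sensing repressor, Man1a (r = 0.88), a mannosidase of N-glycan processing, and Magt1 (r = 0.84), a subunit of oligosaccharyltransferase.

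**Figure D3:**
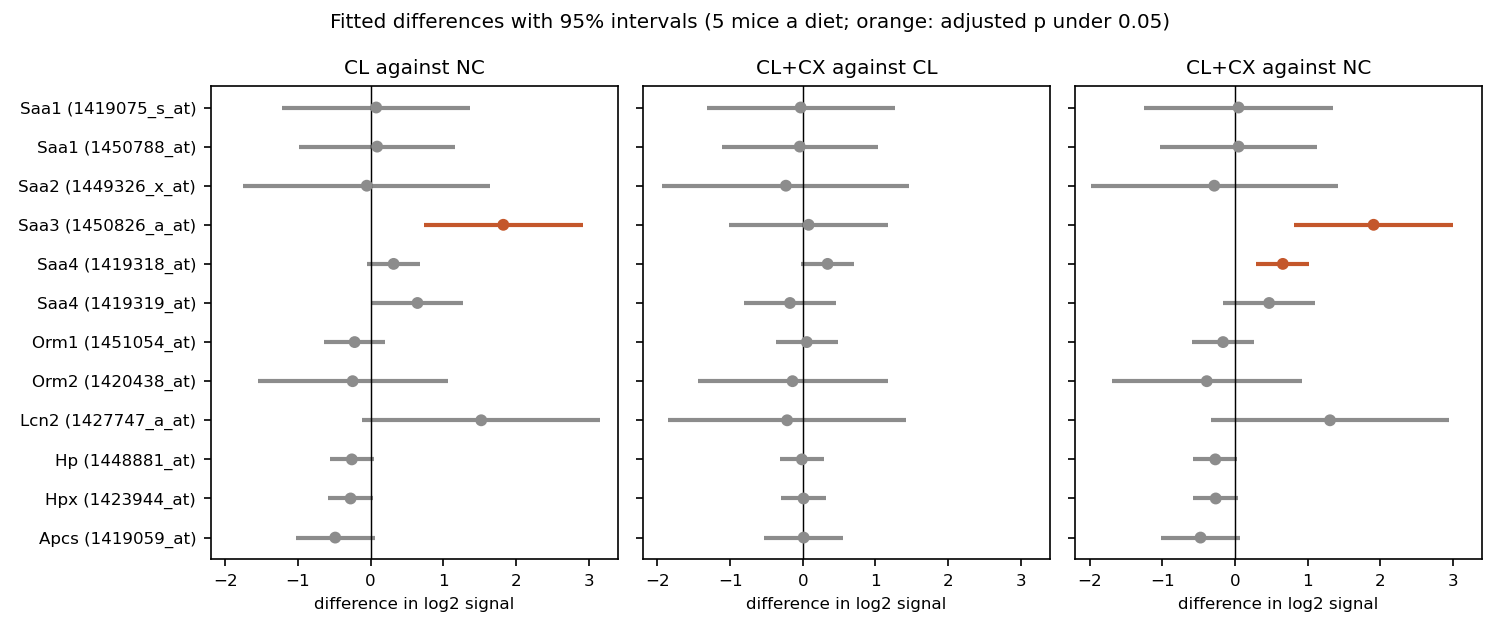
Fitted log2 differences of the 12 probe sets in the 3 comparisons of diets (n = 5 mice per diet). Points are differences, horizontal bars are 95% intervals, and orange marks an adjusted p under 0.05. Saa3 stands at 1.83 in CL against NC and at 1.91 in CL+CX against NC, and no probe set is marked in CL+CX against CL.

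Lcn2, which encodes lipocalin-2, had a difference nearly as large as that of Saa3 but did not pass the test. Its signal was 93.0, 755, 143, 1405 and 63.4 in NC mice 1 to 5. In CL mice it was 673, 356, 545, 1014 and 1329, and in CL+CX mice 1215, 530, 172, 634 and 1190. NC mouse 4 lay above every CL and CL+CX mouse, NC mouse 2 lay among them, and the other NC mice (3 of 5) lay below all of them. The log2 difference was 1.52 for CL against NC (SE 0.77, 95% interval -0.11 to 3.16, adjusted p = 0.220, limma), and the medians, 143 in NC and 673 in CL, differed by 2.23. Leaving out 1 mouse at a time gave 1.03 to 2.15, the highest without NC mouse 4 (adjusted p = 0.0583), and none of these passed. For CL+CX against CL it was -0.21 (95% interval -1.85 to 1.42, adjusted p = 0.915). Lcn2 is also a granule protein of neutrophils. Of 9 neutrophil markers measured, 3 entered the test and none was called, and their summed signal was 75.7 to 133 in NC, 108 to 225 in CL and 54.9 to 242 in CL+CX mice. S100a8 gave 1.47 (adjusted p = 0.0697) and S100a9 0.94 (adjusted p = 0.214) for CL against NC, and the granule genes Camp, Ltf, Elane and Mpo did not reach the filter. S100a8 and S100a9 reached it through CL mice only. The part of neutrophils in the Lcn2 signal was not tested. The genes most like Lcn2 within diets were Tmem176a (r = 0.89), Mt2 (r = 0.87), a metallothionein, and Itgal (r = 0.86), a leukocyte integrin.

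Of the orosomucoids, Orm2 followed Saa1 and Saa2. Its signal was 211, 1341, 133, 1870 and 192 in NC mice 1 to 5. It was 264, 318, 377, 366 and 498 in CL mice and 462, 254, 174, 351 and 493 in CL+CX mice 1 to 5. The highest CL or CL+CX mouse, at 498, lay far below NC mice 2 and 4 and above the other NC mice. The mean and the median gave opposite signs, with a log2 difference of means of -0.25 for CL against NC (SE 0.62, 95% interval -1.55 to 1.06, adjusted p = 0.832, limma) and a difference of medians of 0.79. On signals as deposited the difference of means was 0.07. For CL+CX against CL it was -0.14 (adjusted p = 0.932). Orm1 ranged from 3043 to 6207 in NC, 2980 to 4966 in CL and 3538 to 4384 in CL+CX mice. The Orm1 difference was -0.22 for CL against NC (SE 0.20, adjusted p = 0.520), turning to 0.10 on signals as deposited and 0.00 after quantile normalization, and 0.06 for CL+CX against CL (adjusted p = 0.916). Their neighbour Orm3, from the list of other acute phase genes, was called higher on the CL diet, by 1.25 (SE 0.36, adjusted p = 0.0316), and NC mice 2 and 4 were its highest NC mice too.

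The binding proteins of haemoglobin and haem were steady across mice. Hp ranged from 6548 to 8956 in NC, 4999 to 8495 in CL and 5553 to 6857 in CL+CX mice. Hpx ranged from 7123 to 10061 in NC, 5426 to 9396 in CL and 6032 to 7335 in CL+CX mice. In CL against NC the log2 difference was -0.26 for Hp (SE 0.14, adjusted p = 0.260, limma) and -0.28 for Hpx (SE 0.15, adjusted p = 0.242), and both turned positive, to 0.06 and 0.04, on signals as deposited, while Hp alone turned, to 0.04, after quantile normalization. CL mouse 2 had the highest CL value of both genes, and without it Hp (-0.37, adjusted p = 0.0424) and Hpx (-0.40, adjusted p = 0.0317) were called lower. The array of that mouse correlated least with those of its own diet, at a mean r of 0.946 against 0.960 to 0.967 for the other CL arrays. Its highest scaled signal was 14527, against 8696 to 10348 for the other CL arrays. The differences of CL+CX from CL were -0.01 and 0.01, with 95% intervals of -0.31 to 0.29 for Hp and -0.30 to 0.32 for Hpx. These intervals are the narrowest of the 10 genes. Apcs, the pentraxin gene, ranged from 588 to 1651 in NC, 508 to 928 in CL and 600.2 to 935 in CL+CX mice. Its difference was -0.49 for CL against NC (SE 0.26, 95% interval -1.03 to 0.06, adjusted p = 0.239) and 0.01 for CL+CX against CL (adjusted p = 0.985).

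Within diets the 10 genes fell along a scale of variability. The pooled SD on the log2 scale was 1.43 for Saa2 and 1.38 for Lcn2, above those of 99.92% and 99.85% of all probe sets tested. Orm2 (1.10), Saa1 (0.90 for its brighter probe set) and Saa3 (0.92) also exceeded at least 97.5% of probe sets. Apcs (0.44) exceeded 81.9% and Orm1 (0.33) 63.0%. Saa4 (0.27, brighter probe set), Hpx (0.22) and Hp (0.21) lay below the median of all probe sets, 0.28. The standard error of a difference followed this spread, from 0.14 for Hp to 0.80 for Saa2.

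The NC mice had the widest fold range of the 3 diets for 7 of the 10 genes, all but Saa4, Hp and Hpx. NC mice 2 and 4 were the 2 highest NC mice for 9 of the 10 genes, all but Saa4, a pattern held by 9.82% of all 10525 genes. The mice were picked out by these genes, so the count describes them and tests nothing. Among genes of the other lists the same pair was highest for 7 of 17 other positive acute phase genes (Orm3, Cp, Serpina3n, Itih3, Itih4, Hamp and Lrg1), for 2 of 10 negative acute phase genes, for 2 of 26 cytokine, receptor and signalling genes, for 2 of 9 receptors and partners, for 2 of 8 macrophage markers (Csf1r and Vsig4) and for none of 8 hepatocyte markers. The summed macrophage markers were also highest of the NC mice in these 2, at 1396 and 1489 against 618 to 1235 in the other NC mice, and their part in the pattern was not tested. NC mouse 3 had the lowest NC value for 6 of the 10 genes, and CL mouse 1 the lowest CL value for 8. CL+CX mouse 3 was lowest of its diet for 7 genes and CL+CX mouse 5 highest for 9.

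**Figure D4:**
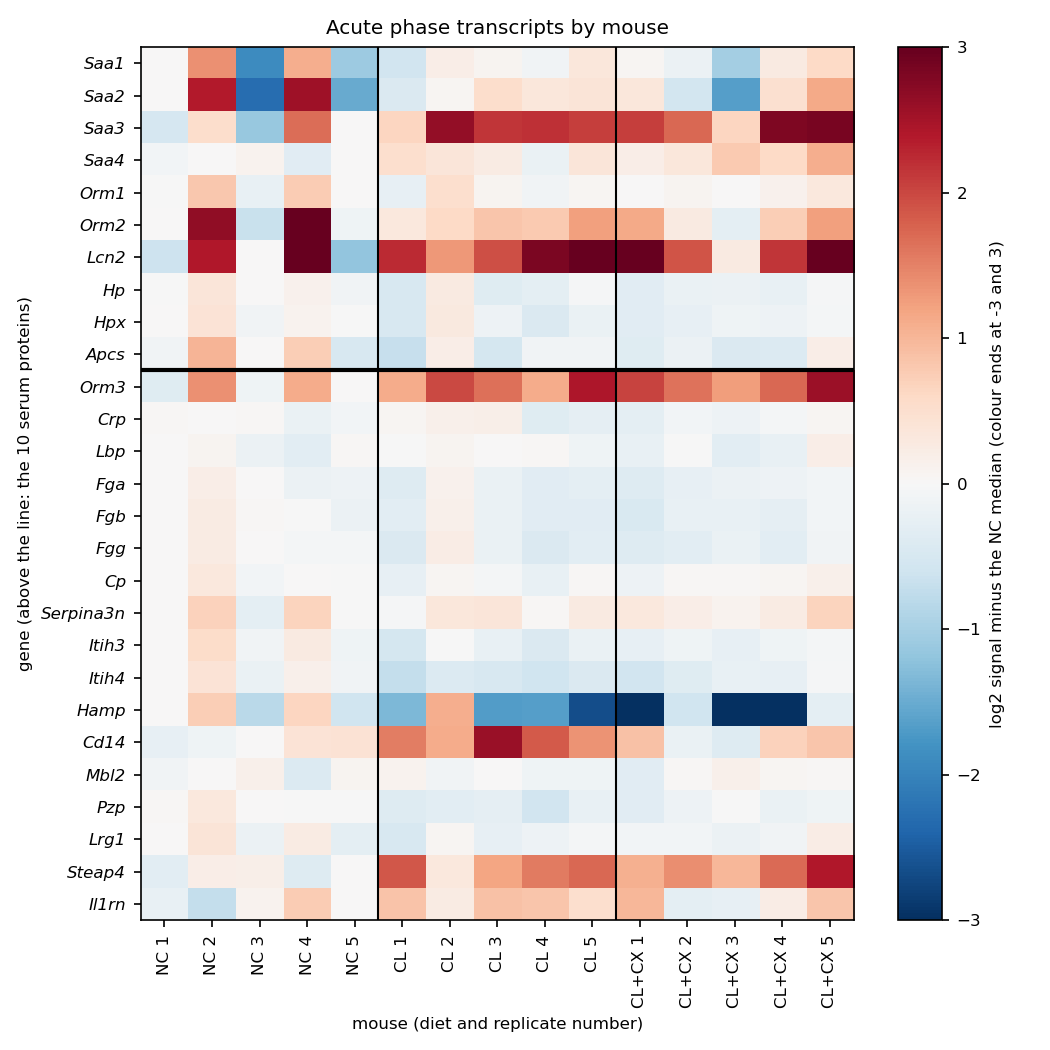
Log2 signal minus the NC median for the 10 serum protein genes (above the black line) and 17 other positive acute phase genes (below it) in each of 15 mice, with diets separated by vertical lines. Colour runs from blue (lower) to red (higher) and ends at -3 and 3. NC mice 2 and 4 are red in Saa1, Saa2, Orm2 and Lcn2, and nearly all CL and CL+CX mice are red in Saa3 and Lcn2.

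The genes moved together from mouse to mouse. With the diet means removed, 23 of 45 pairs of genes correlated over the 15 mice at an adjusted p under 0.05 (permutation test, 100000 permutations of mice within diets, two-sided, Benjamini-Hochberg over 45 pairs), all of them positively. By Spearman's rho it was 25 pairs. Saa1 and Saa2 had r = 0.98 (rho = 0.93, p = 1e-05, the smallest value these permutations can give, adjusted p = 0.00015), though both may be read in part by the same transcripts. Saa2 and Orm2 had r = 0.95 (rho = 0.96, p = 1e-05, adjusted p = 0.00015), and Orm2 and Lcn2 r = 0.90 (rho = 0.90, p = 0.00128, adjusted p = 0.0048). Saa3 followed Saa2 (r = 0.80, rho = 0.84, p = 0.00064, adjusted p = 0.00375) and Orm1 (r = 0.77, rho = 0.83, p = 0.00123, adjusted p = 0.0048). Hp and Hpx had r = 0.90 (rho = 0.77, p = 0.00075, adjusted p = 0.00375), which was 0.59 after quantile normalization. When the 2 mice farthest from the median of the first gene were left out, r was 0.96 for Saa1 and Saa2, 0.92 for Saa2 and Orm2, 0.92 for Orm2 and Lcn2, 0.66 for Saa2 and Saa3 and 0.72 for Hp and Hpx. The mice left out were NC mice 2 and 3 for Saa1 and NC mice 3 and 4 for Saa2 and Orm2. NC mouse 4 or NC mouse 2, respectively, therefore stayed in. Of the 23 pairs, 20 kept an r of at least 0.5. The exceptions were Saa1 with Hp (0.50 with all mice and 0.43 without), Saa1 with Hpx (0.52 and 0.32) and Hpx with Apcs (0.64 and 0.40). None of the 9 pairs with Saa4 passed, with r between -0.29 and 0.29. The points share the scaling of their array.

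**Figure D5:**
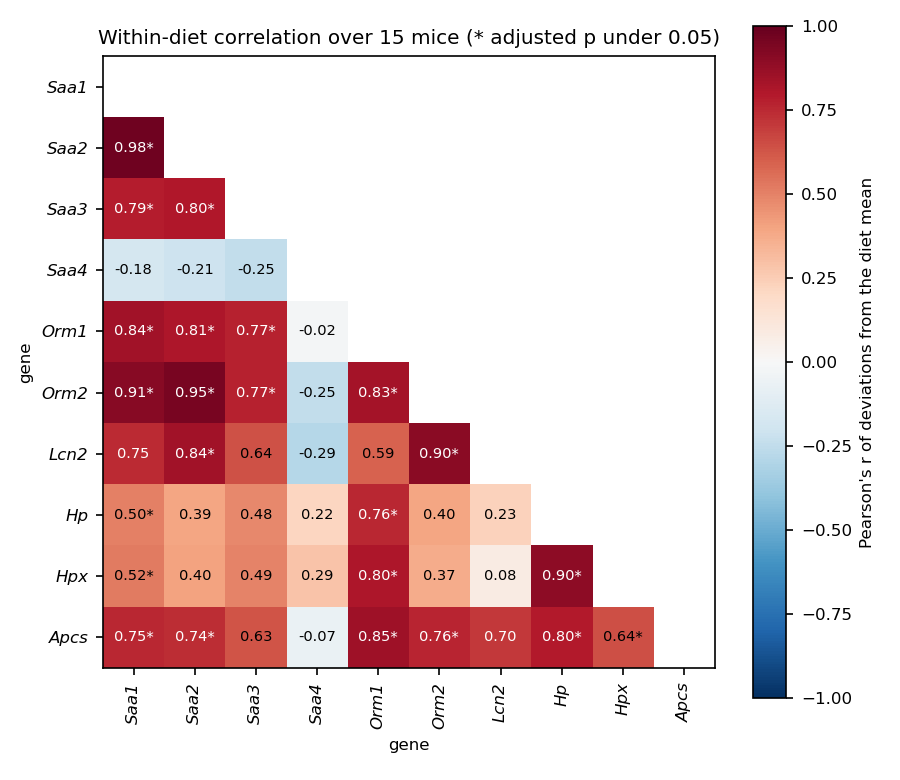
Pearson's r between the 10 genes over 15 mice, after the mean of each diet was removed, with r written in each cell and an asterisk for an adjusted p under 0.05. Red is positive and blue negative. Saa1, Saa2 and Orm2 form the darkest block (r from 0.91 to 0.98), and the row and column of Saa4 are pale.

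The genes outside this group that were most like Saa1, Saa2 and Orm2 within diets began with Serpina3n, a serpin of the acute phase, in all 3 cases (r = 0.91 each). Orm1 was followed most closely by Itih3 (r = 0.93), a heavy chain of inter-alpha-trypsin inhibitor, and Serpina3n (r = 0.93), and Apcs by Lrg1 (r = 0.95), another acute phase glycoprotein. Hp and Hpx had Smco4 (r = 0.93 and 0.97) and Apoa1 (r = 0.89 and 0.96), the main protein of high-density lipoprotein, as nearest genes. Apoa1 ran from 8696 to 14527 in CL mice, the maxima of CL arrays 1 and 2. Hpx stayed at 62.2% to 65.9% of the array maximum in CL mice while its scaled signal ran from 5426 to 9396. The part of array scaling in these correlations was not tested. The third was Alb, albumin, for Hp (r = 0.88) and Mgst1, a glutathione transferase, for Hpx (r = 0.95). Further places went to Lrg1 (r = 0.83) and Ifi27l2b (r = 0.83) for Saa1, Cxcl14 (r = 0.86) and Ifi27l2b (r = 0.85) for Saa2, Pkib (r = 0.88) and Itgal (r = 0.86) for Orm2, Lrg1 (r = 0.86) for Orm1, and Nsmce2 (r = 0.87) and Itih3 (r = 0.86) for Apcs. These are descriptions over 15 mice, chosen as the highest of all genes tested.

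The rest of the acute phase program was counted at gene level, where 13.9% of all genes were called between CL and NC mice and 3.24% between CL+CX and CL mice. Of 17 other positive acute phase genes tested, 3 were called higher in CL mice. They were Orm3, Cd14 (1.60, adjusted p = 0.00299), the lipopolysaccharide co-receptor, and Steap4 (2.63-fold, adjusted p = 0.00665), a metalloreductase. Itih4 (-0.57, adjusted p = 0.0113) and Pzp (-0.42, adjusted p = 0.0195), a protease inhibitor of plasma, were called lower. Hamp, which encodes the iron hormone hepcidin, gave -1.24 (SE 0.79) and the interleukin-1 receptor antagonist Il1rn 0.67 (SE 0.28), and neither was called. The list's median was -0.13, beside -0.08 over all genes. Between CL+CX and CL mice Cd14 alone of the 17 was called, at -1.33 (adjusted p = 0.0294). Cd14 is also counted among the macrophage markers above.

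Negative acute phase genes encode plasma proteins that fall during inflammation. Of 10 tested, 3 were called lower on the CL diet and 1 higher, with a median of -0.33. Serpina6, corticosteroid-binding globulin, gave -1.10 (adjusted p = 0.00210), Fetub -0.77 (adjusted p = 0.00348) and F12, coagulation factor XII, -0.35 (adjusted p = 0.0394). Apoa4, an apolipoprotein of lipid absorption and fasting, was the one called higher, at 1.49 (adjusted p = 0.00277). Alb (-0.38) and Igf1 (-0.35) were not called. None of the 10 was called in CL+CX against CL. Of 8 hepatocyte markers, Apob (-0.42, adjusted p = 0.0175) and Tat (-1.07, adjusted p = 0.0126) were called lower in CL mice, Cps1 (-0.40) and Alb were not, and none was called in CL+CX against CL mice. None of the 8 lay below the array median on all arrays, and their summed signal ran from 58633 to 73954 in NC, 41035 to 65121 in CL and 45527 to 56150 in CL+CX mice. Their part in the values of the serum protein genes was not tested.

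Upstream of these proteins, 26 genes for cytokines, their receptors and signalling were tested. Il6 and Tnf did not reach the filter on low signals. The shared receptor chain Il6st (0.34, adjusted p = 0.0490), the oncostatin M receptor Osmr (0.91, adjusted p = 0.00478), the interleukin-1 receptor Il1r1 (2.19, adjusted p = 0.0165) and Nfkbiz (0.88, adjusted p = 0.0259), a co-regulator of NF-kappaB, were called higher in CL mice. The NC signals of Il1r1 ran from 7.24 to 102, the lowest of them below its array's median. The leukaemia inhibitory factor receptor Lifr (-0.93, adjusted p = 0.00434), the kinase Pim3 (-0.98, adjusted p = 0.0495) and the liver transcription factors Cebpa (-0.53, adjusted p = 0.00559) and Hnf4a (-0.56, adjusted p = 0.0226) were called lower. Socs3, a feedback inhibitor of interleukin-6 signalling, gave 1.15 (adjusted p = 0.152) and Il1b 0.80 (adjusted p = 0.407), and neither passed. With β-cryptoxanthin, against CL mice, Osmr was called lower (-0.79, adjusted p = 0.0326) and Cebpa higher (0.83, adjusted p = 0.00272), whereas no serum protein gene was called.

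Receptors and binding partners of the secreted proteins were counted in the same way. Of 9 tested, 6 were called higher in CL mice than in NC mice and none lower, with a median of 1.21. These were Fpr2 (1.35), a serum amyloid A receptor, Scarb1 (0.43) and Cd36 (0.83), scavenger receptors, Tlr2 (1.89), Hmox1 (1.21), haem oxygenase, and Fcgr1 (2.41), an Fc receptor that binds pentraxins. Their adjusted p ran from 4.83e-05 for Fcgr1 to 0.0449 for Scarb1 (limma). Tlr4 (1.50, adjusted p = 0.0798) and Cd163, the receptor of haptoglobin with haemoglobin (-0.81, adjusted p = 0.427), did not pass. Tlr4 reached the filter on low signals through CL mice only. Tlr2 and Fcgr1, with lowest NC signals of 8.67 and 7.95, did not reach it in NC mice. Against CL mice, Fcgr1 alone was called, at -1.25 (adjusted p = 0.0193). Several of these receptors are expressed by macrophages, whose markers were higher in CL mice as given above, and the part of those cells was not tested. Of 7 lymphocyte markers measured, 2 lay below the array median on all arrays and only Cd3g (1.01) and Nkg7 (1.70) were tested. Both were called higher in CL mice than in NC mice, but both reached the filter through CL mice only. Their signals were low, 3.59 to 15.6 in NC and 13.1 to 20.1 in CL mice for Cd3g, and 1.63 to 11.9 and 18.5 to 31.1 for Nkg7. Of 5 stellate cell markers tested none was called, Des (1.32) and Col3a1 (0.99) having the largest differences between CL and NC, and of the 6 cholangiocyte markers measured Sox9 alone was tested, called lower with β-cryptoxanthin (-1.13, adjusted p = 0.0137). Its signal was low, 19.1 to 36.6 in CL and 10.8 to 15.7 in CL+CX mice, the latter near the array medians.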

How the data were processed

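The authors hybridised liver RNA of 15 mice, 5 per diet, to Affymetrix GeneChip mouse genome arrays and deposited MAS5 signals, which are intensity values on a linear scale with unequal 75th percentiles (41.2 to 78.7). Nothing says which mice shared a cage or extraction. Each array was scaled to a 75th percentile of 54.1 over 45037 probe sets (64 controls left out), values under 1 were raised to 1 (11.2% of values) and log2 was taken. Array medians were 11.4 to 13.6 after scaling. A probe set was tested when, in at least 1 diet, all 5 signals reached the median of their array (20361 probe sets), in 1 limma 3.58.1 fit of 3 diet means in R 4.3.3. The precision of each value is limited by 1 array per mouse. The β-actin 3′ minus 5′ log2 signal, a sign of RNA quality, averaged 0.94 in NC (SD 0.086), 0.82 in CL (SD 0.097) and 1.07 in CL+CX (SD 0.10). It ran from 0.699 to 0.945 in CL and from 0.949 to 1.17 in CL+CX mice, with no overlap. Calls in CL+CX against CL therefore cannot be told apart from a difference in this measure. Where a gene had several probe sets, that with the highest mean stands for it at gene level (10525 genes). Replicate numbers were checked and do not pair mice, with r of deviations from -0.132 to 0.135. Alternatives were 2 filters, 2 scalings, an offset, other tests, the β-actin covariate and leaving out each mouse. All probe sets of the 10 genes are given; from other lists, every gene called in CL against NC or CL+CX against CL and otherwise the 2 with the largest differences. The genes and lists were chosen with earlier results of these data known. Scripts were tested on simulated data. Promoter sequences come from RefSeq. Python 3.11.15 and matplotlib 3.10.9 made the plots.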

Additional observations from a re-analysis of the deposited data

Results flagged for a closer look

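Of 36 groups of 5 mice examined (12 probe sets in 3 diets), 1 held a mouse set apart from the others of its diet. CL mouse 1 had a Saa3 signal of 274, below the other CL mice at 734 to 1084, and its gap took 0.716 of the group's range where 0.71 is the 95% limit for 5 samples. Chance alone sets apart about 1 in 20 such groups. Without CL mouse 1 the Saa3 difference of CL against NC was 2.15 on the log2 scale (adjusted p = 0.0166, limma), and that of CL+CX against CL was -0.24 (adjusted p = 0.842). The same mouse had the lowest CL value for 8 of the 10 genes.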

How the results depend on the processing

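With 5 mice per diet and a within-diet spread above 0.9 on the log2 scale for Saa1, Saa2, Saa3, Orm2 and Lcn2, even an estimate well above 2-fold could go uncalled. The 2.87-fold difference of Lcn2 in CL against NC was not called, with a 95% interval of -0.11 to 3.16 on the log2 scale. Whether a true difference was missed cannot be told from these data. No probe set of the 10 genes was called in CL+CX against CL under any alternative. In CL against NC the count of 1 called fell to 0 with no filter on low signals, by the methods' test and with the β-actin covariate, and ran from 0 to 2 as each mouse was left out. In CL+CX against NC the count of 2 fell to 0 under the same 3 alternatives and ran from 0 to 2 as each mouse was left out. No filter adds probe sets near background to the adjustment, and otherwise the cause was not tested. With no filter the adjusted p was 0.107 for Saa3 in CL against NC and 0.110 for Saa3 and 0.100 for Saa4 in CL+CX against NC. With a replicate block Saa3 kept its call in CL against NC (1.83, adjusted p = 0.0155), and the block changed no other call. Of 650 alternative values of the differences, 566 kept direction and side of the threshold, 26 lost the call, 2 gained one and 56 changed sign, 35 of them on leaving out a mouse.

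The sign changed in CL against NC on signals as deposited for Saa2 (0.26), Orm1 (0.10), Orm2 (0.069), Hp (0.058) and Hpx (0.041), where the median of all probe sets was 0.23 instead of -0.09, so that all of these but Saa2 lay below that median, and after quantile normalization for Saa2 (0.12), Orm1 (0.00080) and Hp (0.039). With the β-actin covariate it changed for Saa1 (-0.19, and -0.28 for the dimmer probe set). In CL+CX against CL the sign changed with the β-actin covariate for Saa1 (0.58, and 0.74 for the dimmer probe set), Saa2 (1.05), Saa4 (0.50, dimmer probe set), Orm2 (0.90) and Lcn2 (0.66), on signals as deposited for Orm1 (-0.015), Hpx (-0.060) and Apcs (-0.057), and after quantile normalization for Hpx (-0.020) and Apcs (-0.0063). Diet and the β-actin difference overlap, so the covariate also takes up part of the diet.

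Leaving out each mouse, the difference of CL against NC ran from -0.35 to 0.46 for Saa1 (-0.42 to 0.51 for its dimmer probe set), -0.68 to 0.53 for Saa2, -0.66 to 0.29 for Orm2 and 1.03 to 2.15 for Lcn2. That of CL+CX against CL ran from -0.20 to 0.20 for Saa1 (-0.22 to 0.26 for its dimmer probe set), -0.53 to 0.17 for Saa2, -0.24 to 0.43 for Saa3, -0.019 to 0.17 for Orm1, -0.29 to 0.083 for Orm2, -0.46 to 0.24 for Lcn2, -0.089 to 0.10 for Hp, -0.063 to 0.13 for Hpx and -0.096 to 0.12 for Apcs.

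Over all probe sets, the number called in CL+CX against CL, 635 here, was 38 with no filter, 81 on signals as deposited, 992 with an offset of 16, 142 with only those diets fitted, 361 with the replicate block and 1 with the β-actin covariate, and 104 to 972 as each mouse was left out. In CL against NC it was 2492 here, 1126 with no filter, 1374 by the methods' test, 1138 with the β-actin covariate and 3852 without CL mouse 2. In CL+CX against NC it was 1983 here, 604 with no filter, 661 with the β-actin covariate, 3209 with only those diets fitted, 1207 without NC mouse 1 and 3071 without CL mouse 2.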
